A study of Mus musculus with 3 samples.

Results

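Natriuretic peptide and cGMP signalling was followed through 8 genes in nuclei of mouse interscapular brown adipose tissue (BAT). They are the natriuretic peptide receptors Npr1, Npr2 and Npr3, the nitric oxide synthase Nos3, the subunits Gucy1a1 and Gucy1b1 of soluble guanylyl cyclase, the cGMP-dependent protein kinase Prkg1 and the cGMP phosphodiesterase Pde5a. The 8 genes were chosen by name as components of this pathway, with earlier results of these data known. All 8 are among the 21214 genes that the 3 libraries share, of 25154 genes in any of them. Each library is 1 condition: untreated BAT, BAT labelled as sham operation, and BAT at day 3 after unilateral cutting of the sympathetic nerves. The labels give every group as adult wild-type mice of the C57Bl6 strain. The header of the denervated table names its sample nKO-WTA_1, a name that could stand for a knockout, and the label was followed without a check of the genotype. The untreated and the denervated library each came from 20 pooled male mice of 8 weeks, and in the latter the nerves of the left lobe were cut. Tamoxifen is also named in the sources for the denervated mice, and which lobe or mice the sham library came from was not given in the sources used here. Nuclei came from the floating layer of digested BAT, which holds lipid-filled adipocytes with attached pieces of vessels, so cells outside that layer were not sampled.

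As background, atrial and brain natriuretic peptides bind the receptor encoded by Npr1, and C-type natriuretic peptide binds that of Npr2, and both receptors make cGMP with a guanylyl cyclase domain inside the cell. Npr3 encodes the clearance receptor, which lacks this cyclase domain and takes natriuretic peptides up for degradation. In adipocytes cGMP made at Npr1 can activate the kinase encoded by Prkg1 and can promote lipolysis and the thermogenic programme, neither of which was measured here. In the vessel wall nitric oxide from the endothelial synthase Nos3 activates soluble guanylyl cyclase in smooth muscle and pericytes and relaxes them. Pde5a hydrolyses cGMP and ends the signal.

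The deposited tables held 13707 to 15822 barcodes per library and 9420030 to 14971579 UMIs (unique molecular identifiers, which count each captured RNA molecule once), of which the 8 genes took 0.0894% in the untreated, 0.113% in the sham and 0.0999% in the denervated library. After quality filters 10521, 11769 and 9614 nuclei were kept, with a median of 985, 748 and 687 UMIs, and barcode indices shared between any 2 libraries numbered 251 to 278, at most 1.85% of a library. Nuclei were named from marker genes after clustering: 4564, 3358 and 4908 brown adipocyte nuclei in the untreated, sham and denervated library, 148, 1009 and 939 white-like adipocyte nuclei, 4948, 5286 and 2156 endothelial nuclei, 559, 1140 and 559 pericyte nuclei, and 74, 411 and 70 smooth muscle nuclei. Ucp1 stood at 312 to 407 CPM (UMIs of a gene per 1000000 UMIs of its class) in brown adipocyte nuclei and at 79.8 to 107 in white-like ones, and Cdh5 at 733 to 817 in endothelial nuclei. Myh11 had 1713 to 2169 CPM in smooth muscle and 62.4 to 101 in pericyte nuclei, whereas Pdgfrb, at 999 to 1193 in pericyte and 618 to 1090 in smooth muscle nuclei, did not separate these classes in the denervated library. In the sham library 857 of the white-like nuclei fell into a sub-cluster with Thbs1 as its first leading gene, and in the denervated library the white-like nuclei had as leading genes the inflammatory genes Cxcl1, Ptx3 and Irf1, so that different states of nuclei stand behind this name. The sham library stood apart from the other libraries in several results below. With 1 library per condition no test was possible, and every interval given is a 95% interval for counting error only.

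Npr1, on chromosome 3 of GRCm38 from 90450591 to 90465866, had its highest level in endothelial nuclei, with 568 CPM in the untreated library (543 to 594), 497 in the sham (473 to 522) and 459 in the denervated library (416 to 504). In brown adipocyte nuclei it stood at 223 (213 to 233), 115 (106 to 125) and 213 CPM (199.99 to 226). The sham library was thus lowest in brown adipocytes, while the untreated and denervated intervals overlapped. The endothelial level was 2.55-fold that of brown adipocytes in the untreated library, 4.32-fold in the sham and 2.16-fold in the denervated library. After subtraction of ambient RNA the sham log2 ratio rose from 2.11 to 4.64. That subtraction took off 88.1% of sham endothelial and 6.91% of sham brown adipocyte UMIs, so the rise rests on this estimate. White-like nuclei had 138, 89.2 and 131 CPM, below brown adipocytes in each library, by 1.62-fold, 1.29-fold and 1.62-fold, and all 3 intervals of this difference left out 0 on the log2 scale. Pericyte nuclei had 53.8, 19.0 and 54.7 CPM, from 13 to 25 UMIs, and smooth muscle nuclei 1 to 3 UMIs in all. The order of classes was therefore endothelial, brown, white-like and pericyte in every library, and the intervals of pericyte and smooth muscle nuclei overlapped. Immune nuclei of the untreated and denervated libraries had 93.3 and 105 CPM, from 6 and 16 UMIs, and their intervals overlapped those of pericyte nuclei. Those of the sham library had 324 CPM (205 to 485, from 23 UMIs), above its adipocyte and pericyte levels, together with many endothelial marker UMIs (a sum of 5528 CPM). Barcodes with under 200 detected genes, which can hold RNA from outside nuclei as well as poor nuclei, had 239.6, 196 and 399 CPM of Npr1, in the denervated library close to its endothelial level. The gene overlaps the antisense gene Gm16048 over 559 exonic bases, and the strand of the counting was not given in the sources used here. Gm16048 itself had 38.5, 9.58 and 31.1 CPM in brown adipocyte nuclei and 3.51, 1.56 and 5.27 in endothelial nuclei, so reads of this pair could have been split between them.

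**Figure D1:**
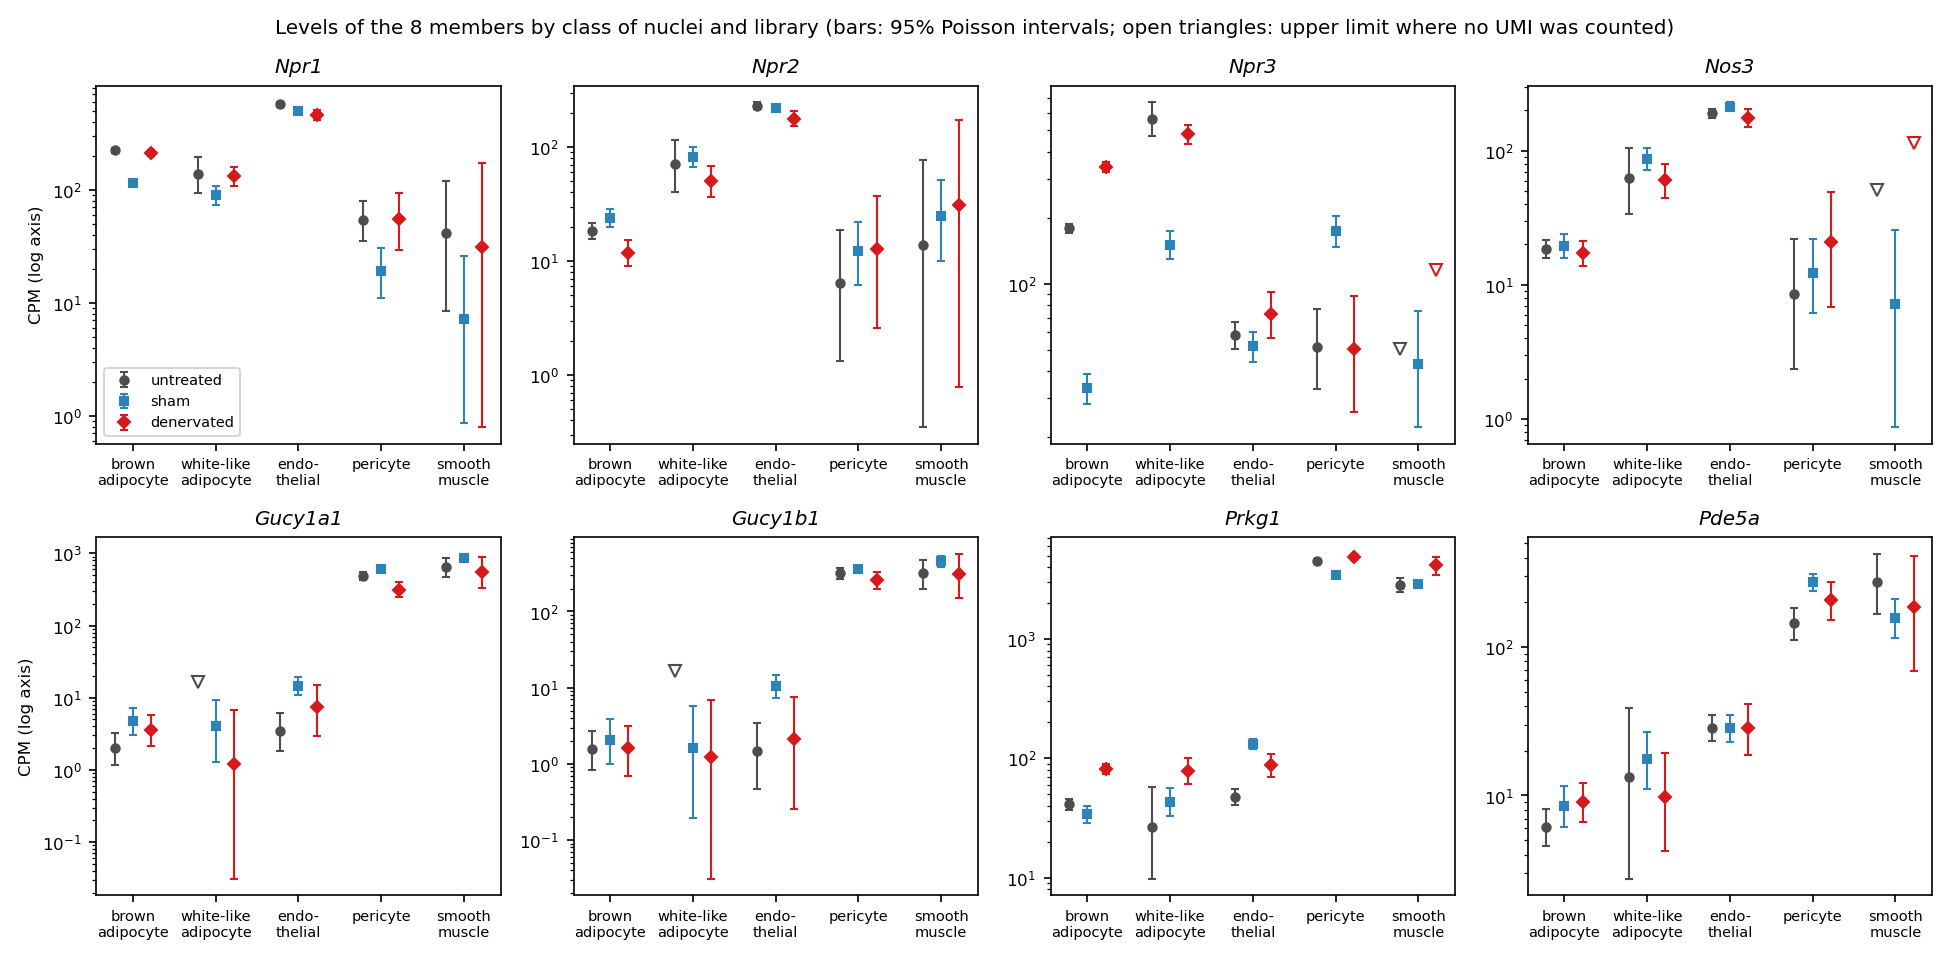
Levels of the 8 genes in CPM (log axis) in 5 classes of nuclei, with 1 point per library and 95% Poisson intervals, and open triangles at the upper limit where no UMI was counted. The receptors Npr1 and Npr2 and Nos3 are highest in endothelial nuclei, Npr3 is highest in white-like adipocytes of the untreated and denervated libraries, and Gucy1a1, Gucy1b1, Prkg1 and Pde5a are highest in pericyte and smooth muscle nuclei.

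Endothelial sub-clusters differed in Npr1. In the untreated library the sub-cluster with arterial markers had 397 CPM (310 to 501), the one with venous markers 727 (627 to 838) and the remaining endothelial nuclei 565 (538 to 592). The sham library gave 332 (252 to 429), 699 (537 to 894) and 500.3 (475 to 527). The venous-like level was 1.83-fold the arterial-like level in the untreated library, a log2 ratio of 0.87 (0.47 to 1.29), and 2.11-fold in the sham library, 1.07 (0.54 to 1.62). In the denervated library no sub-cluster met the rule for arterial nuclei, and the venous-like nuclei, 204 of 2156, had the cell division genes Mki67 and Top2a among their leading genes, which those of the other libraries did not. They had 388 CPM against 471 in the remaining ones, a log2 ratio of -0.28 whose interval held 0 (-0.72 to 0.13). The venous-like groups were not the highest everywhere, since among the remaining nuclei a sham sub-cluster of 138 nuclei had 845 CPM (652 to 1077) and a denervated one of 116 nuclei 757 (518 to 1068). Kirrel3 was the first leading gene of that sham sub-cluster and of the untreated venous-like one. Across the brown adipocyte sub-clusters Npr1 varied less, from 207 to 260 CPM in the untreated, 92.7 to 132 in the sham and 184 to 264 in the denervated library.

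**Figure D2:**
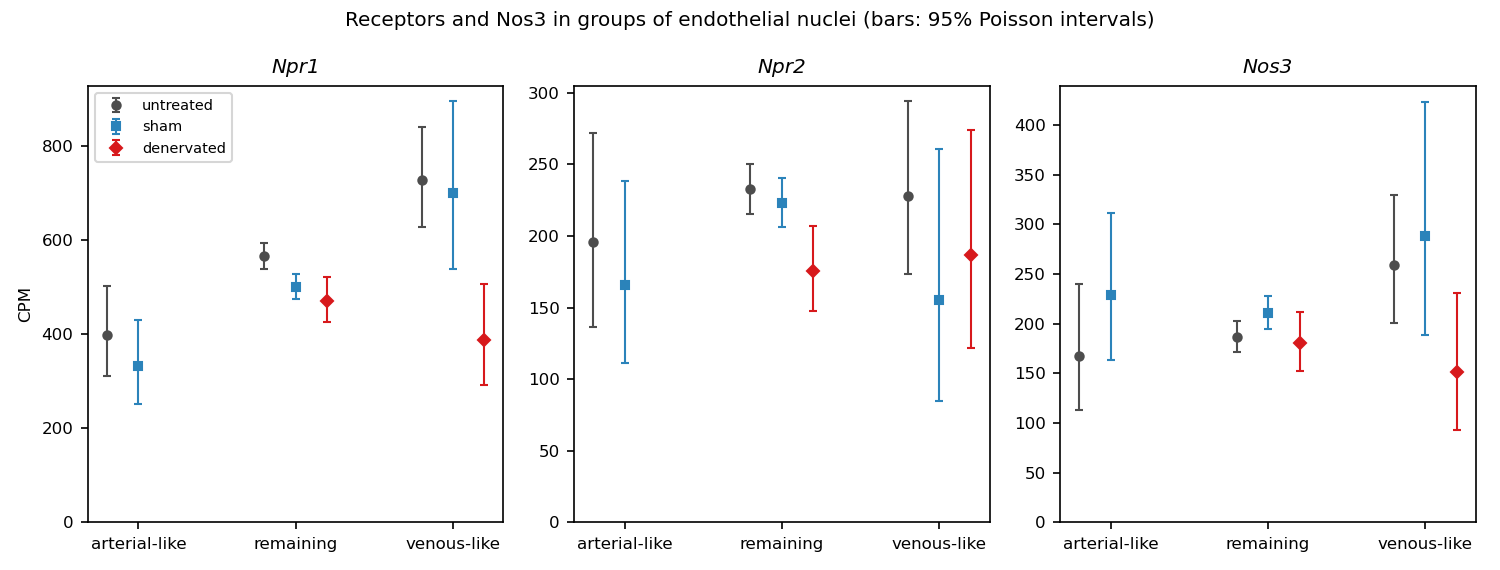
Npr1, Npr2 and Nos3 in CPM in endothelial nuclei with arterial markers, with venous markers and in the remaining ones, with 1 point per library and 95% Poisson intervals. Npr1 rises from arterial-like to venous-like nuclei in the untreated and sham libraries, and the denervated library, which has no arterial-like group, has 388 CPM in venous-like nuclei. The remaining group pools sub-clusters of up to 845 CPM in the sham and 757 in the denervated library.

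Npr3, on chromosome 15 from 11839896 to 11907287, is the member whose level in adipocytes differed most between the libraries. Brown adipocyte nuclei had 179 CPM in the untreated library (170 to 188, from 1488 UMIs), 33.3 in the sham (28.3 to 38.9, from 160 UMIs) and 340.5 in the denervated library (324 to 357, from 1696 UMIs). None of these 3 intervals overlapped. White-like nuclei had 565 (471 to 672), 150.3 (130 to 173) and 479.8 CPM (433 to 530), and here the untreated and denervated intervals overlapped and the sham library was again lowest. The white-like level was above the brown one in every library, by 3.16-fold in the untreated, 4.51-fold in the sham and 1.41-fold in the denervated library. Endothelial nuclei had 58.2, 51.7 and 72.7 CPM, with intervals that overlapped those of immune nuclei, which had 77.8, 70.3 and 78.9 from 5 to 12 UMIs. Smooth muscle nuclei had 12 UMIs of Npr3 in the sham library and 0 in the others. The 33.3 CPM of brown adipocytes in the sham library lay within the wide immune interval (22.8 to 164, from 5 UMIs), and barcodes under 200 detected genes had 22.6 CPM. Those sham immune nuclei also held adipocyte markers, with a sum of 985 CPM. The ambient share estimated for sham brown adipocyte UMIs was 6.91%. Npr3 shares 321 exonic bases with the opposite-strand gene Gm5144, which was not analysed here.

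Sub-clusters of the brown adipocytes kept the order of libraries that these nuclei had in Npr3, though they come from the same 3 libraries. The 5 brown sub-clusters of the denervated library had 300.3 to 352 CPM, the 5 of the untreated library 139 to 274, and the 3 of the sham library 24.8 to 52.1. The highest untreated sub-cluster held 601 nuclei with the heat shock genes Hspa1a, Hspa1b and Dnajb1 in front, and its interval (237 to 315) overlapped those of denervated sub-clusters. The denervated sub-cluster led by heat shock genes, of 1309 nuclei, had 352 CPM (315 to 392) against 337 and 345 in the larger ones. The sham sub-cluster of 928 nuclei led by Jund, Jun and Hspb1 had 52.1 (40.1 to 66.5), the highest of the brown sub-clusters of its library. White-like sub-clusters of the sham library had 168 (144 to 195) and 66.0 (36.1 to 111) CPM.

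**Figure D3:**
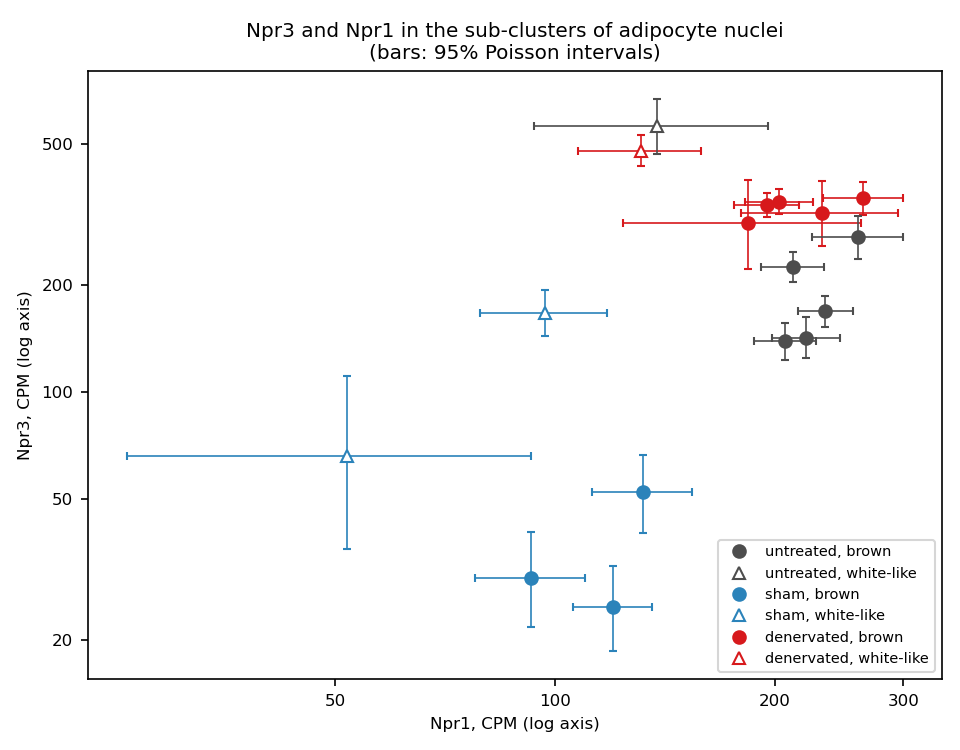
Npr3 against Npr1 in CPM (both axes log) in each sub-cluster of adipocyte nuclei, coloured by library, with filled circles for brown and open triangles for white-like sub-clusters and 95% Poisson intervals. Brown sub-clusters of the denervated library lie at 300.3 to 352 CPM of Npr3, those of the sham library at 24.8 to 52.1, while the untreated and denervated libraries overlap in Npr1.

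The balance of clearance to signalling receptor was followed as Npr3 UMIs per Npr1 UMI. These genes differ in length, so the value compares classes and libraries and not the abundance of the receptors. Brown adipocyte nuclei had 0.802 Npr3 UMIs per Npr1 UMI in the untreated library (0.749 to 0.859), 0.290 in the sham (0.242 to 0.346) and 1.60 in the denervated library (1.48 to 1.73). The denervated value was above the untreated one by a log2 ratio of 1.0 (0.85 to 1.15) and above the sham one by 2.47 (2.18 to 2.75). White-like nuclei had 4.10, 1.68 and 3.65, with a log2 ratio between the denervated and untreated libraries of -0.16 whose interval held 0 (-0.86 to 0.50). In endothelial nuclei it was 0.102, 0.104 and 0.159. Both receptors were found in the same nuclei. Of untreated brown adipocyte nuclei with an Npr3 UMI, 34.2% also had an Npr1 UMI (31.3 to 37.2), against 27.0% of those without (25.5 to 28.5). The denervated library gave 19.3% against 16.3% and the sham library 16.3% against 12.9%, both with overlapping intervals. Nuclei with an Npr3 UMI were also deeper, with a median of 1995 against 1752 UMIs in the untreated and 1091 against 852 in the denervated library, and the part of depth in these shares was not tested.

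Npr2, on chromosome 4 from 43631935 to 43651244, was highest in endothelial nuclei, with 230.2 (214 to 247), 218 (202 to 235) and 177 CPM (151 to 206). The untreated and denervated intervals did not overlap, and the sham interval overlapped both. White-like nuclei had 71.1, 82.0 and 50.3 and brown adipocyte nuclei 18.2, 23.9 and 11.8 CPM, so that the white-like level was 3.90-fold, 3.42-fold and 4.25-fold the brown one. With classes from marker sums the untreated log2 ratio fell from 1.96 to 0.43. Endothelial markers, 12 genes summed, were not higher in white-like than in brown nuclei of the untreated library (320.1 against 369 CPM, with Egfl7 at 0), and stood at 532 against 377 in the sham and 398 against 287 in the denervated library. Their part in the white-like signal was not tested. Barcodes under 200 detected genes had 137 (106 to 174), 78.0 (53.0 to 111) and 155 CPM (130 to 183) of Npr2. The denervated interval there overlapped that of denervated endothelial nuclei. White-like intervals overlapped those of the barcodes in the untreated and sham libraries and lay below in the denervated library. In pericyte nuclei Npr2 had 3 to 11 UMIs, and endothelial nuclei stood above them by 35.7-fold, 17.7-fold and 14.0-fold. The first and the last value each rest on 3 pericyte UMIs, and the log2 ratio of the last fell from 3.81 to 0.64 with a minimum of 500 detected genes. With doublets kept the untreated log2 ratio fell from 5.16 to 3.82 and the sham one from 4.15 to 3.54. Npr2 shares 266 exonic bases with the antisense gene Gm12473, which had 3 to 7 UMIs per library. Npr2 levels in arterial-like, venous-like and remaining endothelial nuclei differed by less than the counting error in each library. The remaining group pools sub-clusters, and in the untreated library these ranged from 171 (140 to 206) to 268 CPM (227 to 314), without overlap. In the sham and denervated libraries the lowest and highest endothelial sub-clusters of at least 50 nuclei had overlapping intervals.

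Nos3, on chromosome 5 from 24364810 to 24384474, had 191 (177 to 206), 214 (198 to 230.4) and 176 CPM (150.4 to 205) in endothelial nuclei of the untreated, sham and denervated libraries. The log2 ratio was 0.16 (0.0055 to 0.32) between the sham and untreated and -0.28 (-0.53 to -0.034) between the denervated and sham libraries, both leaving out 0, and -0.12 (-0.37 to 0.13) between the denervated and untreated ones. Brown adipocyte nuclei had 18.6, 19.6 and 17.3 CPM, with intervals that overlapped those of pericyte nuclei at 8.61, 12.3 and 21.0, and the endothelial level was 10.3-fold, 10.9-fold and 10.2-fold the brown one. The sham log2 ratio of 3.45 rose to 6.37 and the untreated one of 3.36 to 4.26 after subtraction of ambient RNA. That step took off 88.1% and 45.9% of endothelial UMIs in these libraries. The denervated log2 ratio of 3.35 fell to 2.48 with a minimum of 500 detected genes. White-like nuclei had 62.2, 87.6 and 60.1 CPM, 3.35-fold, 4.48-fold and 3.48-fold the brown level (in the sham library a log2 ratio of 2.16, and 1.56 with classes from marker sums), with the endothelial marker sums given above for Npr2. Barcodes under 200 detected genes had 70.5 (49.1 to 98.0), 47.8 (28.8 to 74.6) and 159 CPM (134 to 188) of Nos3. White-like intervals overlapped these in the untreated and sham libraries and lay below in the denervated library, where the endothelial interval overlapped that of the barcodes. In the untreated library Nos3 in venous-like endothelial nuclei was above the remaining ones by a log2 ratio of 0.47 (0.09 to 0.84). The sham ratio was 0.45 and the denervated ratio -0.26, both with intervals that held 0. Nos3 overlaps the antisense gene Gm15587 over 1040 exonic bases and Atg9b over 294, with 9 to 25 and 13 to 46 UMIs per library. Endothelial nuclei with a Nos3 UMI more often had an Npr1 UMI, 36.9% against 28.0% in the untreated library, 28.8% against 22.3% in the sham and 22.8% against 16.2% with overlapping intervals in the denervated library. The former nuclei were again deeper, with medians of 788 against 640, 630 against 500 and 461 against 352 UMIs.

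Gucy1a1 and Gucy1b1, whose products pair to form the nitric oxide-sensitive cyclase, lie side by side on the minus strand of chromosome 3, from 82092427 to 82145789 and from 82032006 to 82074689, 17.7 kb apart with no annotated gene between them. Their promoter windows of 300 bases, from RefSeq on GRCm38.p6, are shown because these neighbours were high in the same classes of nuclei. The Gucy1a1 window, the upstream of 2 listed starts, is chr3:82145601-82145900 on the minus strand, and that of Gucy1b1 is chr3:82074662-82074961 on the minus strand, both written 5′ to 3′.
Gucy1a1: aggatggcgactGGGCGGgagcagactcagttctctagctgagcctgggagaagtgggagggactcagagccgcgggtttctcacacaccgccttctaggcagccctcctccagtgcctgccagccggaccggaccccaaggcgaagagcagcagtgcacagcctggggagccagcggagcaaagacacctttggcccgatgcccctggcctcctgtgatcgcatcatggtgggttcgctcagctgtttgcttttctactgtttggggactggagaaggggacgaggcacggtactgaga
Gucy1b1: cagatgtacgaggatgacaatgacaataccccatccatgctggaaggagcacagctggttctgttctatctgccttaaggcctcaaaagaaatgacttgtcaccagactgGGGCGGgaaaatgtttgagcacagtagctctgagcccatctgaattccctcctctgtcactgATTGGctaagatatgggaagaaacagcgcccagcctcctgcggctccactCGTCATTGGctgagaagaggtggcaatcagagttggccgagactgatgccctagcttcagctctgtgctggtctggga
Capitals mark the motifs searched on both strands, the GC box GGGCGG, the CCAAT box CCAAT and the CRE half-site TGACG. The Gucy1a1 window holds 1 GC box, and the Gucy1b1 window holds 1 GC box, 2 CCAAT boxes and 1 CRE half-site, the latter sharing 1 base with a CCAAT box. Among all 32851 promoter windows of this length 35.7% hold a GC box, 37.4% a CCAAT box and 20.8% a CRE half-site. The CArG box, held by 1.63% of all windows, has no match in either window.

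The cyclase subunits were high in the mural cells. Gucy1a1 had 484 (423 to 552), 612 (562 to 666) and 316 CPM (248 to 396) in pericyte nuclei of the untreated, sham and denervated libraries, and 645 (474 to 858), 872 (766 to 988) and 560.5 (332 to 886) in smooth muscle nuclei. No pair of libraries overlapped in pericytes, with the denervated library lowest. Gucy1b1 had 316 (267 to 372), 358 (319.9 to 399) and 257 (196 to 329.9) in pericyte nuclei and 316, 454 and 311 in smooth muscle nuclei, where the untreated and denervated libraries rest on 23 and 10 UMIs. Endothelial nuclei had few UMIs of either, with Gucy1a1 at 3.51, 14.6 and 7.38 and Gucy1b1 at 1.46, 10.6 and 2.11 CPM. Pericytes stood above endothelial nuclei by 138-fold, 41.8-fold and 42.8-fold for Gucy1a1 and by 216-fold, 33.8-fold and 122-fold for Gucy1b1. Barcodes under 200 detected genes had 4.03, 12.6 and 21.8 CPM of Gucy1a1 and 4.03, 0 and 13.8 of Gucy1b1. All endothelial intervals overlapped those of the barcodes, so the size of these folds rests on endothelial values not told apart from them. For Gucy1b1 the sham log2 ratio fell from 5.08 to 3.41 after subtraction of ambient RNA and the denervated one from 6.93 to 6.11 with a minimum of 500 detected genes, and for Gucy1a1 the untreated one rose from 7.11 to 8.15 after that subtraction. Smooth muscle and pericyte levels differed beyond counting error in the sham library, with log2 ratios of 0.51 (0.29 to 0.73) for Gucy1a1 and 0.34 (0.03 to 0.64) for Gucy1b1, and not in the others. Adipocyte nuclei had at most 4.79 CPM of either gene. The 148 untreated white-like nuclei had 0 UMIs of both, which by a limit of 3 counts allows a share of nuclei with a UMI of up to 2.03%. Of untreated pericyte nuclei with a Gucy1b1 UMI, 36.9% (28.0 to 46.6) also had a Gucy1a1 UMI, against 26.1% without (22.1 to 30.4), and the intervals of this pair overlapped in all 3 libraries.

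Prkg1, which spans 1201 kb of chromosome 19 from 30564489 to 31765033, was high in both mural classes. Pericyte nuclei had 4528 (4336 to 4725), 3466 (3345 to 3590.4) and 4892 CPM (4615 to 5181), and smooth muscle nuclei 2842 (2468 to 3257), 2880.0 (2685 to 3086) and 4141 (3467 to 4908). The pericyte level was above that of smooth muscle by a log2 ratio of 0.67 (0.47 to 0.88) in the untreated and 0.27 (0.15 to 0.38) in the sham library, and by 0.24 with an interval that held 0 in the denervated library. Subtraction of ambient RNA turned the sham value to -0.051. Pericyte sub-clusters of at least 50 nuclei ranged from 2768 to 5039.9 CPM in the untreated, 2424 to 4019 in the sham and 2852 to 6068 in the denervated library. Endothelial nuclei had 47.7, 132 and 87.5, white-like nuclei 26.7, 43.4 and 78.5 and brown adipocyte nuclei 41.4, 33.9 and 81.7 CPM. Immune nuclei had 46.7, 127 and 92.1 CPM from 3, 9 and 14 UMIs, and those of the sham library, with 5 of the 9 UMIs in 1 nucleus, also held 11 of 12 endothelial markers. Barcodes under 200 detected genes had 107, 52.8 and 333 CPM of Prkg1, so the denervated library was highest there as it was in adipocytes. After subtraction of ambient RNA, with these barcodes as its profile, the log2 ratio of denervated over untreated brown adipocyte nuclei was 1.02, from 0.98. The part of such RNA in the adipocyte values was not tested further.

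Pde5a, on chromosome 3 from 122728947 to 122859374, followed the same classes at lower counts. Pericyte nuclei had 144 (112 to 183), 272 (239 to 308) and 206 CPM (153 to 273), and smooth muscle nuclei 275 (168 to 424), 157 (114 to 211) and 187 (68.6 to 407). The untreated pericyte interval lay below that of the sham library, and the denervated one overlapped both. In separate clusterings smooth muscle was above pericytes by a log2 ratio of 0.93 (0.13 to 1.67) in the untreated library and below by -0.79 (-1.29 to -0.32) in the sham library, but with all libraries clustered together these ratios shrank to 0.091 and -0.17. Endothelial nuclei had 28.7, 28.4 and 28.5 and brown adipocyte nuclei 6.12, 8.54 and 9.03 CPM, and the endothelial level was above the brown one by 4.68-fold, 3.32-fold and 3.15-fold. The denervated log2 ratio fell from 1.66 to 0.27 with a minimum of 500 detected genes. The sham one rose from 1.73 to 4.51 after subtraction of ambient RNA, which took off 88.1% of sham endothelial UMIs.

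For comparisons between libraries a gene was called where its log2 ratio of CPM was at least 1 in size, its interval left out 0 and at least 20 UMIs were counted over both libraries in the class. The same rule over all genes gives the background. In brown adipocyte nuclei 8.67% of 14343 genes were called between the denervated and untreated libraries, and 0 of the 8 members. Npr3 came close, with a log2 ratio of 0.93 (0.83 to 1.03), and it stayed between 0.89 and 0.94 under the alternatives. Prkg1 had 0.98 (0.77 to 1.19) and was called under 3 of 12 alternatives. Npr1 differed by -0.067 (-0.18 to 0.043) and Npr2 by -0.62 (-1.08 to -0.18). Between the denervated and sham libraries 23.2% of 13669 genes were called, and 3 of the 7 members tested. Npr3 was 10.2-fold higher, a log2 ratio of 3.35 (3.12 to 3.60), and 75 of the 13669 genes, itself included, had a ratio as high. Its sham level is the one that lay within the immune interval. Prkg1 was higher by 1.27 (1.0 to 1.54), and Npr2 lower by -1.02 (-1.49 to -0.55), a call kept under 6 of 12 alternatives. Between the sham and untreated libraries, of which neither was denervated, 17.4% of 13884 genes were called and 2 of 8 members, Npr3 at -2.42 (-2.67 to -2.19), among the 164 lowest ratios, and Gucy1a1 at 1.23 (0.26 to 2.23), from 23 and 17 UMIs and kept under 10 of 12 alternatives. Npr1 missed the threshold with -0.95 (-1.09 to -0.82). The sham and untreated libraries thus lay further apart in Npr3 and Npr1 than the denervated and untreated libraries did.

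**Figure D4:**
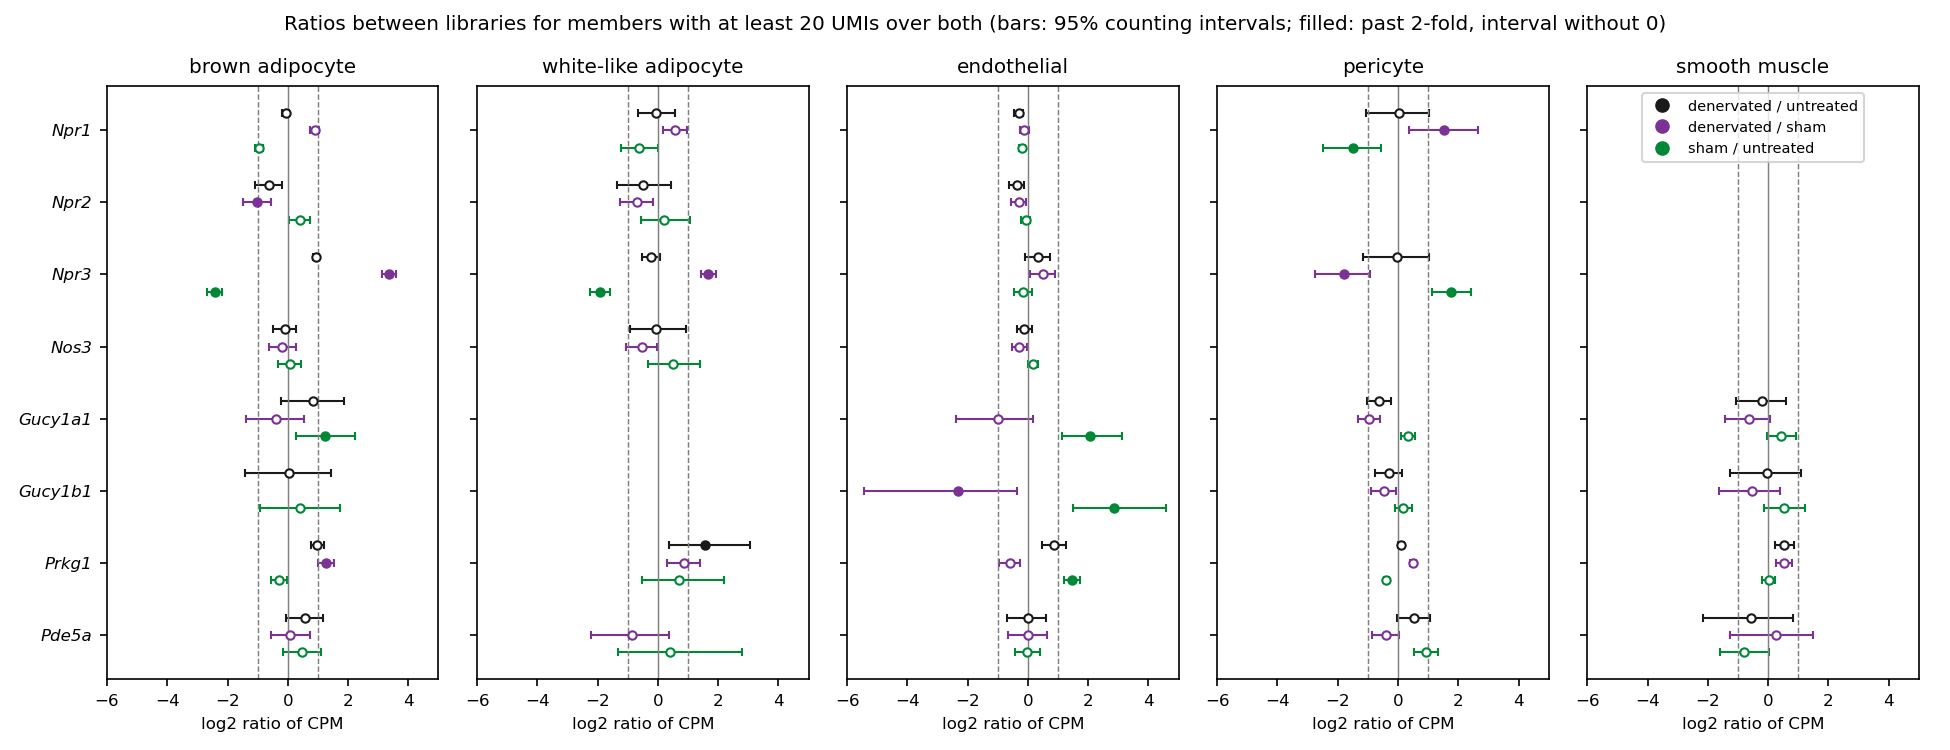
Log2 ratios of CPM between libraries for each gene with at least 20 UMIs over both, in 5 classes of nuclei, with 95% counting intervals, dashed lines at a 2-fold difference and filled points where the call rule was met. Filled points are mostly ratios with the sham library, and the denervated against untreated ratios have 1 filled point, Prkg1 in white-like adipocytes.

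White-like nuclei had 13.4% of genes called between the denervated and untreated libraries, 21.1% between the denervated and sham libraries and 14.2% between the sham and untreated libraries. Of the members 1 of 5, 1 of 6 and 1 of 6 were called. Prkg1 was above the untreated library in the denervated one by 1.56 (0.36 to 3.06), from 64 and 6 UMIs, and at a clustering resolution of 1 the ratio was 1.41 with an interval that held 0 (-0.20 to 3.73), which ended the call. Npr3 was higher in the denervated than in the sham library by 1.67 (1.42 to 1.93) and lower in the sham than in the untreated library by -1.91 (-2.24 to -1.57), while the denervated and untreated libraries differed by -0.23 with an interval that held 0 (-0.53 to 0.066).

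Endothelial nuclei had 7.54%, 15.3% and 8.6% of genes called in the same 3 comparisons, and 0 of 6, 1 of 8 and 3 of 8 members. Npr1, Npr2 and Nos3, the members with the highest endothelial levels, were not called in any of them. Between the denervated and untreated libraries Npr1 was lower by -0.31 (-0.46 to -0.16) and Npr2 by -0.38 (-0.63 to -0.14), and Nos3 differed by -0.12 (-0.37 to 0.13). With a minimum of 500 detected genes the Npr2 ratio was -1.22. Subtraction of ambient RNA, which took off 45.9% to 88.1% of endothelial UMIs, turned the sham against untreated ratios to 1.68 for Npr1 and 2.30 for Nos3, from -0.19 and 0.16. The denervated against sham ratios became -2.60 for Npr2 and -2.87 for Nos3, from -0.30 and -0.28. The sham library was above the untreated one in Gucy1b1 by 2.86 (1.49 to 4.57), in Gucy1a1 by 2.06 (1.12 to 3.11) and in Prkg1 by 1.47 (1.21 to 1.74), and above the denervated one in Gucy1b1, where the ratio of -2.33 (-5.43 to -0.37) rests on 2 and 34 UMIs and was kept under 9 of 11 alternatives. Prkg1 was also higher in the denervated than in the untreated library, by 0.88 (0.48 to 1.27), short of the 2-fold rule but past it under 4 of 11 alternatives, at 1.04 to 1.16. Subtraction of ambient RNA gave no ratio for it and is not among these 11. Barcodes under 200 detected genes had 107 CPM of Prkg1 in the untreated and 333 in the denervated library, the same direction and above the endothelial levels. The Gucy1a1 ratio of sham over untreated nuclei was 2.72 with a minimum of 500 detected genes and 3.29 after subtraction of ambient RNA. These 3 genes are high in pericytes. All 8 pericyte markers were found in endothelial nuclei of the untreated and sham libraries and 7 of 8, without Vtn, in those of the denervated library. Their sum was 258, 332 and 381 CPM in the untreated, sham and denervated libraries, and Pdgfrb alone stood at 6.14, 18.4 and 10.5. Their part in these ratios was not tested. Barcodes under 200 detected genes had 4.03 CPM of Gucy1a1 in the untreated and 12.6 in the sham library, from 2 and 5 UMIs. For Gucy1b1 they had 4.03 and 0 CPM, from 2 and 0 UMIs with overlapping intervals, and for Prkg1 107 and 52.8. The part of such RNA in the endothelial ratios was not tested. Npr3 in endothelial nuclei was not called, with 0.32 between the denervated and untreated libraries, but had 1.56 with doublets kept, 1.15 with the sub-clusters of 2 classes kept and 1.70 with a minimum of 500 detected genes. The ratio of denervated over sham nuclei of 0.49 moved to 1.91, 1.41 and 1.87 under the same alternatives and turned to -2.02 after subtraction of ambient RNA. The summed adipocyte markers of endothelial nuclei were 1354, 1318 and 1504 CPM, with all 8 genes found in each library.

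Pericyte nuclei had 8.04%, 13.6% and 7.49% of genes called, and 0 of 6, 2 of 6 and 2 of 6 members. The 2 were Npr1 and Npr3, and the Npr1 ratios rest on 13 to 25 UMIs a library. Npr3 had 51.6 CPM in the untreated library (33.1 to 76.8), 173 in the sham (147 to 203) and 50.5 in the denervated library (26.1 to 88.2), from 24, 155 and 12 UMIs. The interval of each overlapped that of immune nuclei in its library, which for the sham library rests on 5 UMIs. Barcodes under 200 detected genes had 48.3, 22.6 and 78.0 CPM of Npr3, and the sham interval there (10.3 to 43.0) lay below that of sham pericytes. The sham library was higher than the untreated one by 1.75 (1.12 to 2.43), and the denervated library was lower than the sham one by -1.78 (-2.76 to -0.93), and the ratio was -0.97 with the sub-clusters of 2 classes kept. All 8 adipocyte markers were found in the pericytes of each library, with sums of 1319, 930 and 1351 CPM, and their part in the Npr3 ratios was not tested. Npr1 was lower in the sham than in the untreated library by -1.5 (-2.48 to -0.55), from 17 and 25 UMIs, and kept the call under 7 of 11 alternatives. It was higher in the denervated than in the sham library by 1.52 (0.36 to 2.65), kept under 9 of 10, and denervated over untreated nuclei had 0.025 (-1.07 to 1.05). Subtraction of ambient RNA gave none of these Npr1 ratios and is not among the alternatives counted. Barcodes under 200 detected genes had 239.6, 196 and 399 CPM of Npr1, above the pericyte levels of 53.8, 19.0 and 54.7. The endothelial markers of pericyte nuclei summed to 704, 615 and 964 CPM, with Egfl7 at 0 in the untreated and denervated libraries, and the part of endothelial RNA in the Npr1 ratios was not tested. Of the members with high pericyte levels none was called. Between the denervated and sham libraries Gucy1a1 was lower by -0.95 (-1.32 to -0.60) and was called under 6 of 12 alternatives. Pde5a was higher in the sham than in the untreated library by 0.92 (0.52 to 1.33), and by 1.54 after subtraction of ambient RNA. The ratios of denervated over sham nuclei went from -0.40 to -1.22 in Pde5a and from -0.48 to -1.55 in Gucy1b1 with a minimum of 500 detected genes. With a minimum of 500 detected genes the denervated library was lower than the untreated one by -1.62 in Gucy1a1 and -1.41 in Gucy1b1.

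Smooth muscle nuclei had 12%, 7.8% and 8.89% of genes called and 0 of 4 members in each comparison. Under alternatives Gucy1a1 was called in the denervated against the sham library in 3 of 10, at -1.28 to -1.07 from -0.64, and against the untreated library in 1 of 10, at -1.01 from -0.20, and Gucy1b1 against the sham library in 1 of 10, at -1.02 from -0.54. Prkg1 was higher in the denervated library by 0.54 (0.22 to 0.86) against the untreated and by 0.52 (0.25 to 0.79) against the sham library, and differed by 0.019 (-0.20 to 0.25) between the sham and untreated libraries. These nuclei had Pdgfrb at 618, 800 and 1090 CPM and Myh11 at 2169, 2047 and 1713 in the untreated, sham and denervated libraries. The part of pericyte nuclei in the Prkg1 ratios was not tested.

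Shares of nuclei with at least 1 UMI were compared after thinning each nucleus to 500 UMIs, which left out 148, 163 and 503 brown adipocyte nuclei and 1689, 2542 and 1607 endothelial nuclei of the untreated, sham and denervated libraries. Thinned, Npr3 was found in 7.70% of brown adipocyte nuclei in the untreated (6.93 to 8.53), 1.82% in the sham (1.38 to 2.34) and 14.4% in the denervated library (13.4 to 15.5), against 22.2%, 4.02% and 24.5% of all nuclei before thinning, at median depths of 1819, 1413 and 900 UMIs. In immune nuclei, of a median of 647.5, 771 and 460.5 UMIs, the thinned share was 3.92% (0.48 to 13.5, 2 of 51), 1.59% (0.040 to 8.53, 1 of 63) and 1.69% (0.21 to 5.99, 2 of 118). The untreated and sham brown adipocyte values lay within these intervals and the denervated value above. The immune nuclei also held adipocyte markers, with sums of 2582, 985 and 2151 CPM, so they are no clean background for Npr3. Npr1 was found in 10.6%, 5.32% and 10.4% of thinned brown adipocyte nuclei, where the order before thinning was 28.6%, 13.1% and 17.1%, and in 24.6%, 19.8% and 15.7% of endothelial nuclei, of which 549 were deep enough in the denervated library, against 29.0%, 23.0% and 16.6% before thinning. In immune nuclei the thinned share of Npr1 was 1.96% in the untreated, 14.3% in the sham and 4.24% in the denervated library. Those of the sham library are no clean background for it, since their endothelial markers summed to 5528 CPM against 622 and 769 in the untreated and denervated libraries. Pericytes had Npr1 in 2.0%, 0.925% and 1.61% of thinned nuclei. Prkg1 was found in 79.3%, 71.5% and 77.4% of thinned pericyte nuclei, 450, 973 and 124 of them, and in 86.4%, 80.2% and 76.6% before thinning, against 3.92%, 3.17% and 1.69% of thinned immune nuclei, 2 nuclei in each library.

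**Figure D5:**
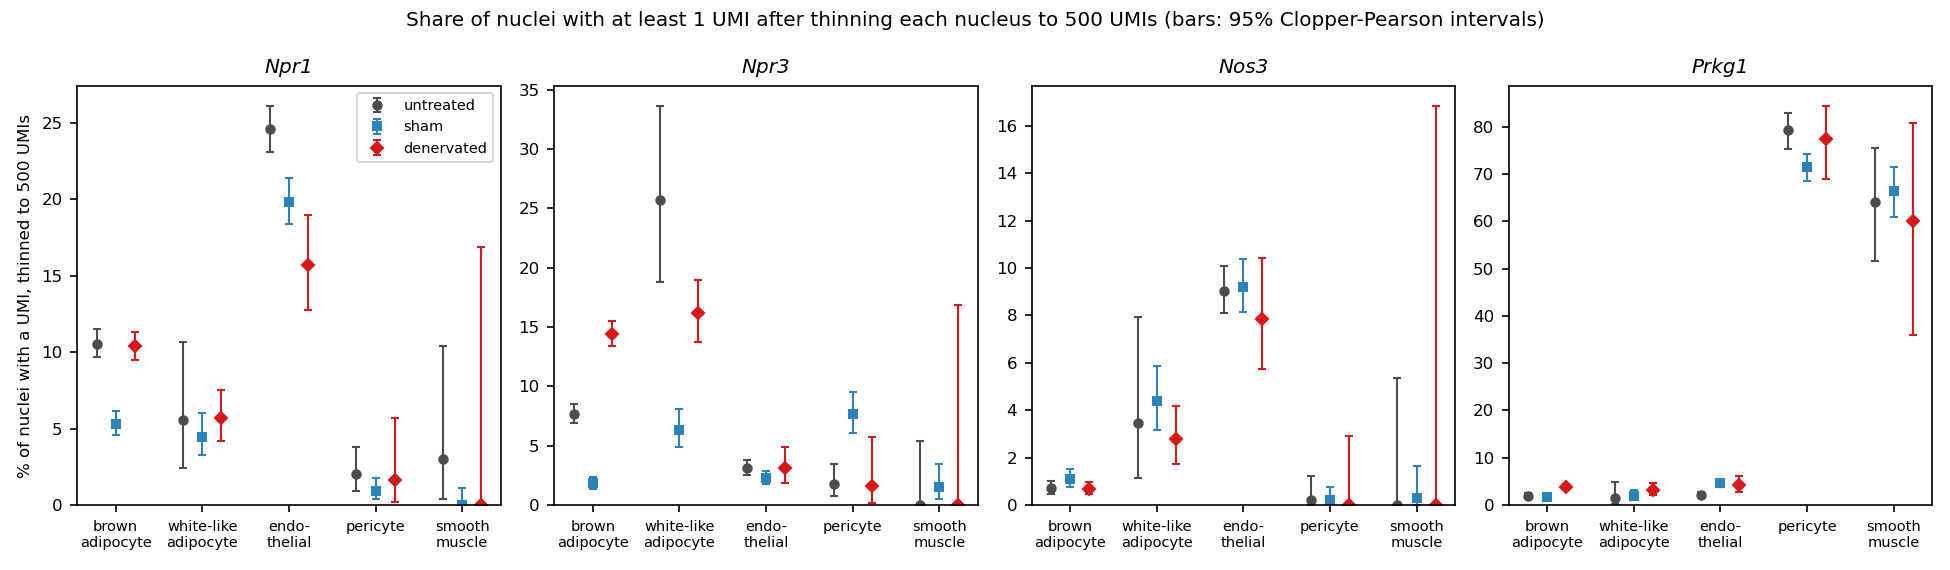
Percent of nuclei with at least 1 UMI of Npr1, Npr3, Nos3 and Prkg1 after thinning each nucleus to 500 UMIs, in 5 classes and 3 libraries with 95% Clopper-Pearson intervals. Npr3 is found in 14.4% of brown adipocyte nuclei of the denervated library against 7.70% and 1.82% in the untreated and sham libraries, and Prkg1 in 71.5% to 79.3% of pericyte nuclei.

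The wider pathway was followed in a list of 40 other genes, of which 35 are in all 3 tables and the rest, Nppa and Nppb among them, were not analysed here. In brown adipocytes 5 of 31 tested genes were higher and 1 lower in the denervated than in the untreated library, with a median log2 ratio of 0.23 against 0.042 over all genes tested, of which 8.67% were called. Against the sham library 8 of 27 were higher and 0 lower (median 0.13 against 0.085), where 23.2% of all genes were called. Genes called in the same direction against both libraries were Nos1, the neuronal nitric oxide synthase, with 7.68, 4.79 and 18.9 CPM, Ddah1, which degrades an endogenous inhibitor of nitric oxide synthases, with 8.64, 10.8 and 24.9, the membrane-bound kinase gene Prkg2 with 2.40, 2.50 and 7.43, and the phosphodiesterase gene Pde11a with 3.36, 4.16 and 9.44. All 4 are low in these nuclei, with 12 to 124 UMIs a library. Both comparisons share the denervated library, and the share of all genes called against both libraries was not computed. The alternatives covered the 8 members only, so no call of a list gene was put through them. The highest levels of the list in brown adipocytes were those of Itpr1, a calcium channel of the endoplasmic reticulum, with 737, 311 and 803 CPM, Rgs2, which limits G protein signalling and is a target of the kinase, with 464, 807 and 483, and Pde3b, a phosphodiesterase inhibited by cGMP, with 432, 523 and 544. In white-like nuclei Pde3b led with 929, 871 and 1019.8, followed by Cav1, a binding partner of Nos3, with 511, 488 and 702, and the myosin phosphatase subunit Ppp1r12a with 378, 385 and 474.

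In endothelial nuclei 2 of 23 list genes were higher and 0 lower in the denervated than in the untreated library, and 4 of 27 higher and 3 lower against the sham library, with median log2 ratios of 0.16 and 0.095 against 0.073 and 0.065 over all genes, of which 7.54% and 15.3% were called. Nos1 was the gene called against both, with 9.95, 8.41 and 23.2 CPM from 34, 27 and 22 UMIs. Cav1 had the highest level with 1768, 1366 and 1577, before Ppp1r12a with 652, 696 and 731 and Itpr1 with 278, 286 and 281. In pericytes 1 of 20 and 3 of 23 list genes were called, beside 8.04% and 13.6% of all genes. Pde3b was the gene called against both libraries, with 25.8, 36.9 and 109 CPM from 12, 33 and 26 UMIs. That gene is high in adipocytes, whose marker sums in pericytes are given above, and their part in it was not tested. The highest pericyte levels were those of Ppp1r12a with 1014, 1198 and 1423, of the alternative cyclase subunit Gucy1a2 with 719, 527 and 669, and of Nostrin, which traffics Nos3, with 619.8, 389 and 682. Smooth muscle nuclei were led by Ppp1r12a, with 2128, 2583 and 2335, and Pde3a, with 755, 918 and 903, before Cav1 with 686, 579 and 716 CPM.

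Between the sham and untreated libraries, 2 of 30 list genes were called in brown adipocytes, 5 of 26 in endothelial nuclei and 2 of 23 in pericytes, beside 17.4%, 8.6% and 7.49% of all genes. White-like nuclei gave 2 of 14, 2 of 18 and 3 of 16 list genes called in the denervated against untreated, denervated against sham and sham against untreated comparisons, beside 13.4%, 21.1% and 14.2% of all genes. Smooth muscle nuclei gave 0 of 8, 5 of 15 and 2 of 15, beside 12%, 7.8% and 8.89%.

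Likeness of pattern was measured as Pearson's r of log2(CPM + 1) over 20 profiles of class and library with at least 50 nuclei, among 12806 genes. The profiles of a library share its depth and background RNA, so the values are descriptions. Gucy1a1 and Gucy1b1 had an r of 0.92 with each other, Pde5a and Gucy1a1 0.80, and Prkg1 and Gucy1a1 0.76. Between the 3 receptors the values were lower, with 0.46 for Npr1 and Npr2, 0.31 for Npr1 and Npr3 and 0.053 for Npr2 and Npr3. The nearest genes of Npr1 were Ptprm (0.89), Palmd and Gja1 (both 0.88), those of Npr2 were Limch1 (0.87), Ndrg1 (0.86) and Cracr2b (0.85), and those of Npr3 were Vac14, Dner and Smarcal1 (each 0.88). Nos3 was nearest to Sh3tc1 (0.86), Helz2 and Plcb1 (both 0.85), and Pde5a to Mras and Tfpi (both 0.93) and Ddr2 (0.92). Prkg1 was nearest to Il34 and Meg3 (both 0.98) and Adgrl3 (0.97), Gucy1a1 to Gm6249 (0.95) and Foxs1 (0.94), and Gucy1b1 to Mrvi1 (0.95), whose product is a substrate of the kinase at the calcium store, Ppp1r14a (0.94) and Tbx5 (0.93).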

How the data were processed

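Nuclei of 3 libraries, 1 per condition, were profiled on the BD Rhapsody platform. The authors deposited raw UMI counts, 1 whole number for each gene in each barcode, not normalized. Per the file headers, the untreated and denervated counts were made with the BD WTA Rhapsody Analysis Pipeline 1.9 on GRCm38 with GENCODE vM19, and the sham table has no header. A build named in the submitters' processing notes is human, whereas the gene names are those of mouse. The sample name in the header of the denervated table differs from its label, and the label was followed. In the study's methods debris was removed with DIEM and ambient RNA with decontX, and neither step was repeated here.

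Barcodes were kept from 200 detected genes upward and up to 50% mitochondrial UMIs. A nucleus was removed as a doublet if 2 mutually exclusive marker lists each had 3 or more UMIs in it and the lower sum reached 25% of the higher one (1271, 2258 and 848 nuclei). Each library was clustered on its own (2000 variable genes without the 8 members, 30 principal components, 20 neighbours, Louvain resolution 0.5), and adipocyte, endothelial and mural nuclei were clustered again at resolution 0.8. Clusters were named from marker lists. The naming rule, and the rule that left out sub-clusters with a mean log2 excess over 0.75 of another class's markers (103, 304 and 605 nuclei), were chosen once clusters were known, and differences from the study may come from these names. White-like and smooth muscle nuclei were sub-clusters with at least 3 of their markers at least 2-fold above the whole class and above the brown adipocyte or pericyte markers. Class sizes were not compared between libraries.

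UMIs were summed per class and library and divided by the class total (CPM, per 1000000 UMIs). Intervals are exact 95% Poisson intervals for levels, Clopper-Pearson for shares and conditional binomial for ratios, and cover counting error only. The members and gene lists were chosen with earlier results of these data known. Of the pathway list the text names genes called in the denervated library against both others in 1 direction and the 3 highest per class, and for each member the 3 genes nearest in profile among those with at least 100 UMIs in all, of which 1 is not reported here. Positions are from GENCODE vM21 on GRCm38. The ratio, interval and thinning steps were tested on simulated data. The alternatives changed the gene minimum, the mitochondrial limit, doublet removal, the resolution, joint clustering, classes from marker sums, members among the clustering genes, ambient RNA, means over nuclei, the denominator, centring on the median, thinning to 800 UMIs, the fold and the UMI minimum, and, chosen after seeing the data, kept the sub-clusters of 2 classes. Software was Python (3.11.15), numpy (2.4.6), scipy (1.17.1), scikit-learn (1.9.0), python-igraph (0.11.9) and matplotlib (3.10.9).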

Additional observations from a re-analysis of the deposited data

Results flagged for a closer look

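Npr3 differed between classes of nuclei under the same contrast of libraries. Between the denervated and sham libraries its log2 ratio was 3.35 in brown adipocytes and 1.67 in white-like adipocytes, but -1.78 in pericytes. Between the sham and untreated libraries it was -2.42 in brown and -1.91 in white-like adipocytes, but 1.75 in pericytes. The directions were opposite in adipocytes and pericytes in both contrasts, with 1 library per condition, and the difference was not tested. Both contrasts share the sham library, and between the denervated and untreated libraries the ratios were 0.93, -0.23 and -0.032. The pericyte values rest on 24, 155 and 12 UMIs in the untreated, sham and denervated libraries. Each, like the sham value in brown adipocytes, overlapped the interval of immune nuclei, which in the sham library is wide (22.8 to 164, from 5 UMIs). Sham barcodes under 200 detected genes had 22.6 CPM (10.3 to 43.0). This lies below the sham pericyte interval (147 to 203) and overlaps the sham brown adipocyte one (28.3 to 38.9). Under the alternatives the pericyte ratios ranged from -4.24 to -0.97 between the denervated and sham and from 1.42 to 2.95 between the sham and untreated libraries.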

How the results depend on the processing

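Of 42 counts of called members under the alternatives 30 stayed within 1.5 times the main count. Between the denervated and untreated libraries the count of 1 moved to 6 with a minimum of 500 detected genes, 3 with at most 10% mitochondrial UMIs, 3 with doublets kept, 0 at resolution 1, 4 with classes from marker sums, 2 after subtraction of ambient RNA, 6 at 1.5-fold and 3 with sub-clusters of 2 classes kept, an alternative chosen after seeing the data. Between the denervated and sham libraries 7 moved to 12 with at least 500 genes, 11 after subtraction of ambient RNA and 12 at 1.5-fold, and between the sham and untreated libraries 8 moved to 5 with at least 50 UMIs. The cause of these moves was not tested. Npr3 in brown adipocytes kept its direction under all 12 alternatives that give it, at 3.25 to 3.46 between the denervated and sham, -2.53 to -2.33 between the sham and untreated and 0.89 to 0.94 between the denervated and untreated libraries. Of 1075 log2 ratios 986 stayed within the counting interval, and 0 of the called ones reversed where they could be formed. Of the 16 called ratios, 11 could be formed after subtraction of ambient RNA and 15 with a minimum of 500 detected genes. The rest are not counted under these alternatives. Of 704 ratios between classes 79 moved beyond their counting interval and 1 reversed, Prkg1 in pericytes over smooth muscle of the sham library, at -0.051 after subtraction of ambient RNA. That subtraction used barcodes under 200 detected genes as its profile and took off 2.41% to 9.76% of adipocyte and 42.4% to 88.1% of other UMIs, which can include a class's own transcripts. Of 1304 levels 151 and of 1040 thinned shares 138 moved out of their intervals. No paired analysis was possible because each condition has 1 library.

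Depth limits the mural classes of the denervated library, where the 559 pericyte nuclei hold 237536 UMIs and the 70 smooth muscle nuclei 32116, so that 1 UMI equals 4.21 and 31.1 CPM.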
